A study of Mus musculus with 10 samples.

Results

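The sequences described here are immunoglobulin M (IgM) heavy-chain sequences whose V segment differed from its assigned germline at 3 or more bases, in the deep cervical lymph nodes of mice with a glioma. They were selected on measured values: productive heavy-chain sequences with an IGHM constant gene, a deposited count under 100, at least 200 aligned V bases and 3 or more mismatches between the aligned query and germline, gaps and undetermined bases left out. In all 10 mice 6147 of 218996 low-count IgM sequences met these conditions (2.81%), out of 313384 productive heavy-chain sequences and 448970 sequences of all chains. The study used wild-type C57BL/6 mice that received GL261 cells, a mouse glioma line, into the brain. In 1 group, 5 mice were given an isotype control IgG. In the other, 5 mice were given an antibody against CTLA-4, an inhibitory receptor of T cells. Nodes were taken at day 20 and dissociated without a sort, and 1 bulk receptor library per mouse was made from total RNA of the whole cells, so every mouse carried the tumour and no untreated or tumour-free mouse was part of the comparison. Each library held 33568 to 63017 sequences with a summed deposited count of 382184 to 790139, and whether a count stands for reads or molecules is not given in the sources used here.

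B cells first express IgM and can keep it after an immune response. In germinal centres the deaminase AID changes cytosines of the V segment, preferentially within short hotspot motifs, and error-prone repair adds changes at adenines and thymines. Class-switch recombination joins the same V, D and J rearrangement to a downstream constant gene, so that an IgM sequence and an IgG, IgA or IgE sequence with the same junction can come from 1 clone. IgM memory B cells carry such changes, but a receptor table holds no surface marker or transcription factor, and IGHM was the single marker of the selection that the files could show. A mismatch also arises where the V segment of the strain is missing from the germline set or was aligned to a near-identical gene, so each selected sequence was first set against the nearest V sequence in the files.

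Fewer than 1 in 2 of the selected sequences kept 3 or more substitutions in that comparison. The reference held the 110 germline V genes printed in the deposited alignments, 16 V sequences that recurred unchanged in at least 5 junctions and 3 mice, and IGHV1-69 with its common base change, and the last 10 aligned V bases were left out. Of the 6147 sequences, 2915 (47.4%) kept 3 or more substitutions, and these are called the substituted members below. A further 1942 (31.6%) were IGHV14-2 sequences printed against the germline of IGHV14-1, its close relative, after a joint call of both genes. Another 665 (10.8%) matched a recurrent V sequence for which the files print no close germline. In 497 (8.09%) too few substitutions were left outside the last 10 V bases, where the segment joins the D gene. The common base change of IGHV1-69 accounted for 125 (2.03%), and the last 3 matched another germline. Under this comparison only the substituted members kept enough substitutions for the label mutated. The comparison changed the reference only. Whether each of their substitutions was somatic, or came from library making or sequencing, was not tested. Whether the cells were memory cells could not be checked from these files.

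Both V genes of the largest such class are shown because their difference alone met the condition of 3 mismatches. Capitals mark the bases at which IGHV14-1 and IGHV14-2 differ within V bases 104 to 213, counted from 1 at the first base of the V segment.
IGHV14-1 germline: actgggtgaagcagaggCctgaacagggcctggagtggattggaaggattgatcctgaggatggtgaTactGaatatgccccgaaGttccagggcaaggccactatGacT
IGHV14-2 germline: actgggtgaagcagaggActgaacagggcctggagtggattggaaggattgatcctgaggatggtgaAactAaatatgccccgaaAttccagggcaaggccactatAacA
Reading from IGHV14-1 to IGHV14-2, the differences of this stretch were C121A, T171A, G175A, G189A, G210A and T213A, and 11 differences lay in the compared segment. The set of 7 mismatches that IGHV14-2 gives against IGHV14-1 was carried by 1542 members with 1526 junctions, in every mouse. IGHV1-19 shows the other class, a V sequence that recurred without a germline of its own. Capitals mark where the recurrent sequence and the IGHV1-19 germline differ within V bases 63 to 172.
IGHV1-19 germline: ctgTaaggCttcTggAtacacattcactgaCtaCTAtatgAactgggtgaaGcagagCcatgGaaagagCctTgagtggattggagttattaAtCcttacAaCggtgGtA
IGHV1-19 recurrent sequence: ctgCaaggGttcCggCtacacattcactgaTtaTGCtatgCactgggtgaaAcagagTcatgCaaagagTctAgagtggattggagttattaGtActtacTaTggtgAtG
The recurrent sequence differed from IGHV1-19 at 39 bases, and 149 members with 146 junctions in 10 mice carried exactly this set. Similar recurrent sets stood against IGHV8-12 with 40 mismatches (118 members in 10 mice), IGHV4-1 with 13 (57 members in 10 mice) and IGHV1-56 with 26 (46 members in 9 mice).

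The number of mismatches shows the same division. Against the deposited germline 1508 members had exactly 3 mismatches, 738 had 4, 415 had 5 and 248 had 6, after which the number rose again to 561 at 7 and 1268 at 8 mismatches. A further 937 members had 12 or more, up to 59. Against the nearest reference 2283 of the same sequences had no substitution, 1193 had exactly 3, 694 had 4, 353 had 5 and 230 had 10 or more, and the peak at 7 and 8 was gone. The substituted members had a median of 4 substitutions. Just outside the selection lay 5872 low-count IgM sequences with 2 mismatches, 34728 with 1 and 172249 with none. At the count limit, the highest member had a count of 86, and 8 IgM sequences with 3 or more mismatches were left out at counts of 104 or more. A count of 1 was carried by 64.9% of the members.

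**Figure D1:**
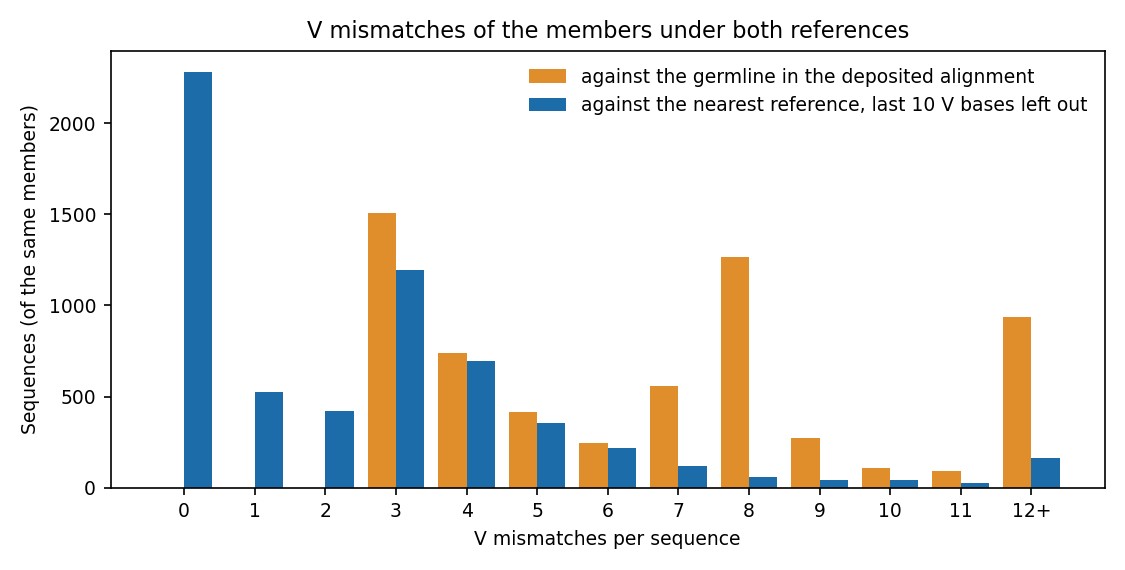
V mismatches per sequence (x axis) against the number of selected IgM sequences (y axis), for the germline of the deposited alignment and for the nearest reference. The peak of 1268 sequences at 8 mismatches is absent against the nearest reference, where 2283 sequences had none.

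Per mouse, the selected sequences made up 1.98, 2.87, 2.88, 1.96 and 2.26% of low-count IgM sequences in isotype mice 1 to 5, and 3.11, 6.14, 3.47, 2.13 and 2.22% in anti-CTLA-4 mice 1 to 5. Anti-CTLA-4 mouse 2 was highest, and the other mice of both groups overlapped. The means were 3.41% ± 1.63 (SD, n = 5) with anti-CTLA-4 and 2.39% ± 0.456 (SD, n = 5) with isotype, a difference that did not pass (exact permutation test over all 252 reassignments, two-sided p = 0.175, adjusted p = 0.349 over 2 measures of size). In bulk RNA, fewer cells of a type and less RNA per cell cannot be told apart, and the p-values measure the spread between these mice.

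The substituted members carried most of the differences between mice. They made up 0.549, 1.24, 1.38, 0.50 and 0.632% of low-count IgM sequences in isotype mice 1 to 5, and 1.85, 4.24, 2.13, 0.800 and 0.936% in anti-CTLA-4 mice 1 to 5. Anti-CTLA-4 mice 1, 2 and 3 were above every isotype mouse, while mice 4 and 5 lay within the isotype range. Mice 1, 2 and 3 of that group also had the fewest low-count IgM sequences, 16726, 17324 and 15784, against 18008 to 33041 in the others. Whether the share followed library depth or the number of sequences was not tested. The mean was 1.99% ± 1.38 (SD, n = 5) with anti-CTLA-4 and 0.861% ± 0.417 (SD, n = 5) with isotype, and the difference did not pass (exact permutation test, p = 0.0952, adjusted p = 0.190; the smallest p the reassignments can give is 0.00794). Without anti-CTLA-4 mouse 4 the difference was 1.43 percentage points with an adjusted exact permutation p of 0.0397. That was the lowest when each mouse was left out in turn, and the highest adjusted exact permutation p was 0.333. Counting each rearrangement, a combination of V, J and junction in a mouse, once, the 1729 substituted rearrangements made up 1.22% ± 1.03 of low-count IgM rearrangements with anti-CTLA-4 and 0.608% ± 0.224 with isotype (SD, n = 5 each; exact permutation test, adjusted p = 0.206). Leaving out a mouse gave adjusted exact permutation p-values of 0.0397 to 0.429 for rearrangements, lowest without anti-CTLA-4 mouse 4. The IGHV14-2 class, by contrast, stayed between 0.747 and 1.12% in every mouse, and the recurrent V sequences between 0.233 and 0.387%.

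**Figure D2:**
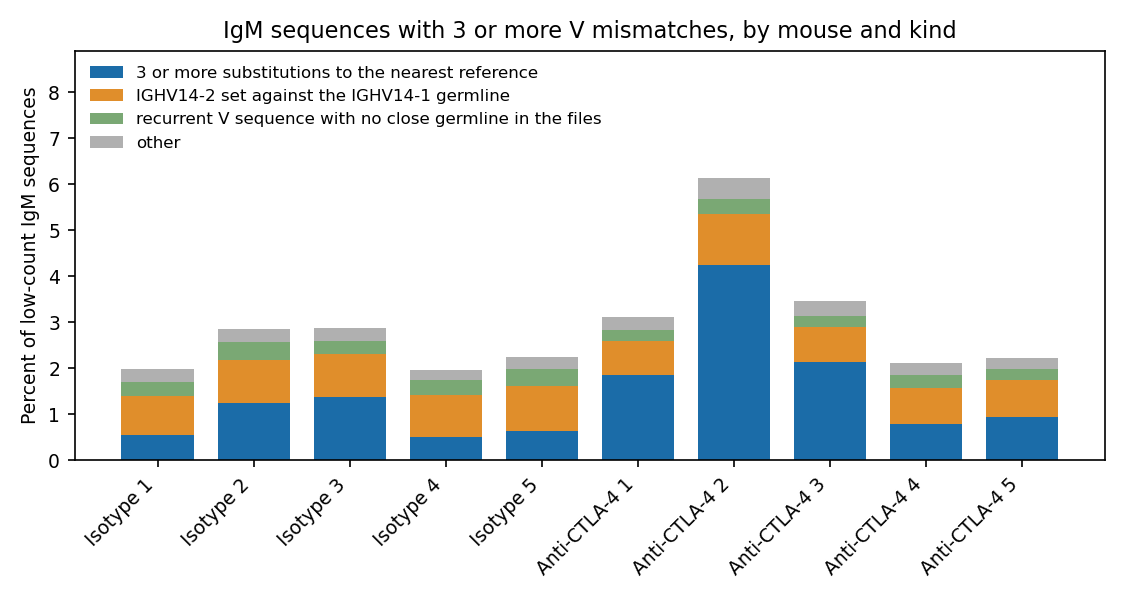
Selected IgM sequences as a percent of low-count IgM sequences in each of the 10 mice, stacked by the outcome of the comparison with the nearest reference. The substituted members ranged from 0.50 to 4.24%, and the IGHV14-2 class from 0.747 to 1.12%.

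The substitutions of the substituted members lay at AID hotspots more often than those of IgM sequences with 1 or 2 substitutions in the same mouse. Hotspots were the C of AAC, AGC, TAC or TGC (written WRC) and, on the other strand, the G of GTT, GTA, GCT or GCA (GYW), which made up 14.5% of the V bases compared. In the substituted members 33.8, 40.7, 44.3, 31.6 and 32.0% of substitutions lay at hotspots in isotype mice 1 to 5, and 37.2, 42.9, 43.7, 44.8 and 38.9% in anti-CTLA-4 mice 1 to 5. The sequences with 1 or 2 substitutions had 22.0, 23.0, 21.9, 19.5 and 19.4%, and 23.7, 30.3, 26.3, 18.8 and 20.3%, in the same order. All values of the substituted members lay above all values of the comparison sequences. The means were 39.0% ± 5.11 and 22.5% ± 3.57 (SD, n = 10), a difference of 16.4 percentage points in the same direction in 10 of 10 mice (exact sign-flip permutation test over 1024 flips, two-sided, adjusted p = 0.00293 over 6 measures). The selection used the number of substitutions and not their kind or place.

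Sequences seen once made up 71.6 to 86.2% of the deposited IgM sequences with 1 or 2 mismatches in a mouse, and 50.5 to 70.5% of the substituted members. With a minimum count of 2 in both sets the hotspot shares were 39.8% and 35.8%, higher in the substituted members in 7 of 10 mice, and the difference of 3.98 percentage points no longer passed (exact sign-flip permutation test, adjusted p = 0.0703). The part of single counts in the larger difference was not tested beyond this.

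The second motif followed the same direction and kept it. The A of AA or TA and the T of TT or TA (WA and TW), the positions tied to error-prone repair, made up 18.8% of the bases compared and held 24.9% ± 3.23 of the substitutions of the substituted members against 15.9% ± 1.03 in sequences with 1 or 2 (SD, n = 10; 10 of 10 mice, adjusted p = 0.00293). Hotspot positions are C or G and WA positions are A or T, so no base counts as both. Substitutions fell on A in 28.1% and on T in 12.3% of cases, although A made up 26.5% and T 23.1% of the bases compared, and on G in 37.3% against a G content of 26.4%. In sequences with 1 or 2 substitutions the share on T was 19.8%. Transitions made up 58.0% ± 4.27 of substitutions in the substituted members and 66.1% ± 1.90 in the comparison sequences (SD, n = 10), lower in 10 of 10 mice (adjusted p = 0.00293). G to A was the most frequent change in the substituted members at 24.2% ± 5.14, followed by C to T at 14.4% ± 2.45 and A to G at 13.6% ± 2.42. T to C stood at 5.71% ± 1.31 in the substituted members and at 13.01% ± 1.31 in the comparison sequences.

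**Figure D3:**
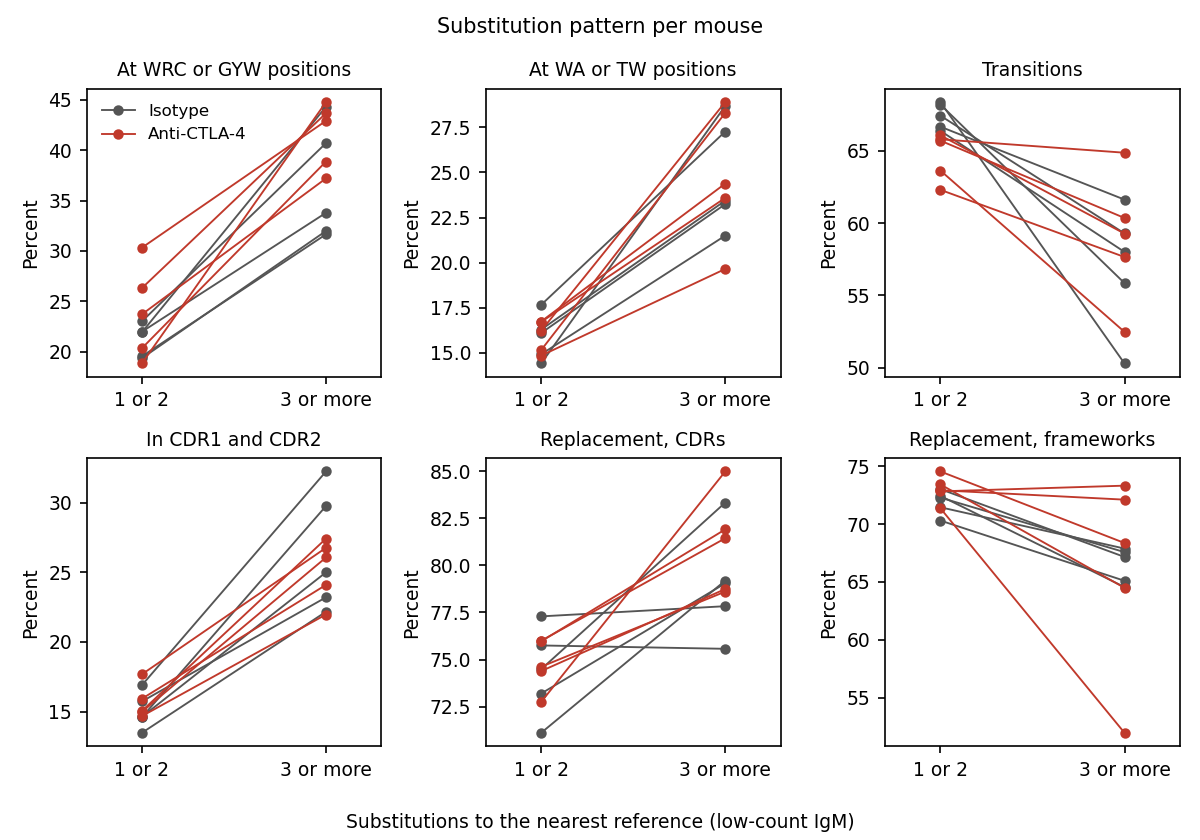
Each panel gives a percent per mouse (y axis) in low-count IgM sequences with 1 or 2 and with 3 or more substitutions to the nearest reference (x axis), with a line per mouse coloured by group. Hotspot, WA and CDR shares were higher at 3 or more in all 10 mice, transitions were lower in all 10, and the replacement panels turned the other way in 1 mouse each; y axes do not start at 0.

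Substitutions were denser in the complementarity-determining regions (CDR1 and CDR2), the loops that contact antigen, than in the frameworks (FR1 to FR3) that hold the fold. In the substituted members the density per 100 V bases was 2.39 ± 0.414 in CDR1 and 2.83 ± 0.534 in CDR2, against 1.16 ± 0.319 in FR1, 1.62 ± 0.393 in FR2 and 1.78 ± 0.387 in FR3 (SD, n = 10). In sequences with 1 or 2 substitutions the densities of the 5 regions lay between 0.341 and 0.451, with CDR2 lowest and FR1 highest. CDR1 and CDR2 held 25.9% ± 3.32 of the substitutions of the substituted members and 15.4% ± 1.23 in the comparison sequences, while they made up 17.0% of the bases (SD, n = 10; higher in 10 of 10 mice, exact sign-flip permutation test, adjusted p = 0.00293). The ranges over mice did not overlap, with 22.0 to 32.2% in the substituted members and 13.5 to 17.7% in the comparison sequences.

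**Figure D4:**
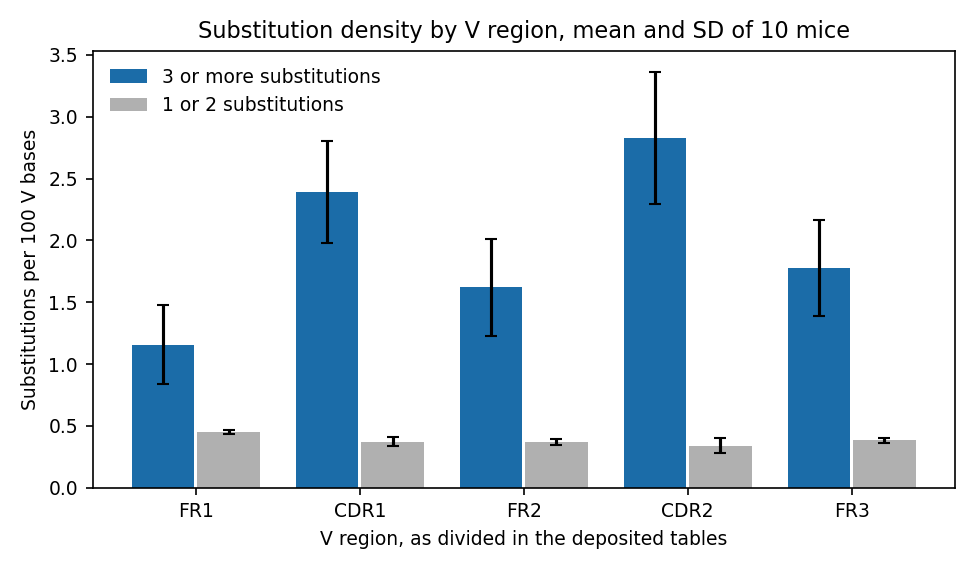
Substitutions per 100 V bases (y axis) in each V region (x axis), as the mean and SD of 10 mice, for low-count IgM sequences with 3 or more and with 1 or 2 substitutions to the nearest reference. CDR1 and CDR2 reached 2.39 and 2.83 in the first set, and the second set stayed between 0.341 and 0.451.

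Replacement substitutions, those that change the encoded amino acid, were fewer in the frameworks and more in the CDRs. Framework substitutions were replacements in 66.3% ± 5.82 of cases in the substituted members and 72.4% ± 1.19 in the comparison sequences (SD, n = 10; lower in 9 of 10 mice, adjusted p = 0.00391, exact sign-flip permutation test). Making every possible base change once in the same frameworks gives 77.4%, so both sets stood below that value. The lowest framework share was 52.0% in anti-CTLA-4 mouse 5. CDR substitutions were replacements in 80.1% ± 2.81 and 74.6% ± 1.83 (higher in 9 of 10 mice, adjusted p = 0.00391), where every possible change once gives 79.4%. With a minimum count of 2 the CDR difference turned to -2.57 percentage points and did not pass (adjusted p = 0.150), while the framework difference kept its direction and its call.

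Set against the deposited germline, all selected sequences together gave another picture for transitions. Transitions made up 56.3% ± 1.53 in the selected sequences and 52.9% ± 1.10 in sequences with 1 or 2 mismatches (SD, n = 10; adjusted p = 0.00195), the opposite direction to the substituted members. Hotspot shares were 22.1% ± 3.89 and 16.6% ± 2.90, WA shares 23.2% ± 0.924 and 14.3% ± 0.908, and CDR shares 21.1% ± 1.13 and 12.8% ± 1.24 (adjusted p = 0.00195 each, exact sign-flip permutation tests, 10 of 10 mice). These values include the fixed differences between V genes shown above.

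Between treatments none of the 6 pattern measures passed. Hotspot shares of the substituted members were 41.5% ± 3.27 with anti-CTLA-4 and 36.5% ± 5.70 with isotype (SD, n = 5; exact permutation test, p = 0.127, adjusted p = 0.762), and the groups overlapped. Over all selected sequences the shares were 24.6% ± 2.53 and 19.7% ± 3.51 (p = 0.0397, adjusted p = 0.238, exact permutation test). Leaving out isotype mouse 3, the highest of its group at 25.4%, gave a difference of 6.37 percentage points with an adjusted exact permutation p of 0.0476. With each mouse left out in turn the adjusted exact permutation p reached 0.533. All selected sequences mix substituted members with sequences selected through fixed differences between V genes. Substituted members were 90 of 353 selected sequences in isotype mouse 4 and 735 of 1064 in anti-CTLA-4 mouse 2. The part of this mixture in the difference was not tested.

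Recurrent substituted positions were mostly hotspots. IGHV14-2 held the position substituted in most separate rearrangements: base 102, in FR2, differed in 49 members with 29 rearrangements in 5 mice, and 91.8% of these members carried G102A. The neighbouring base 103 differed in 27 members with 21 rearrangements in 4 mice, mostly as C103T. Base 114 differed in 28 members with 20 rearrangements in 3 mice, mostly as the silent G114A. The stretch of IGHV14-2 from base 90 to 119 is shown with these bases in capitals.
IGHV14-2 bases 90 to 119: agactactatatGCactgggtgaaGcagag
The adjacent G and C in capitals are bases of overlapping hotspots. Next came base 299 of IGHV14-4, where the 24 members that differed, from 24 rearrangements in 9 mice, all carried G299C. Base 176 of IGHV1-26 differed in 23 rearrangements in 8 mice, and 57.1% of the 28 members that differed there carried G176C. Base 197 of IGHV1-55 differed in 22 rearrangements in 6 mice, with G197C in 62.2% of those 37 members. Base 168 in CDR2 of IGHV1-50 differed in 21 rearrangements in 7 mice, with the silent C168T in 58.3% of those 24 members. Position 299 of IGHV14-4 lies in the part of the V segment that enters CDR3. Bases 295 and 296 of that gene lie there too. Each differed in 21 of its 96 substituted members, from 20 rearrangements, in 8 and 7 mice. Whether differences at these end bases were somatic, or came from the join or the germline set, was not tested. In IGHV1-69, G46A was present in 57 of 105 substituted members, from 20 rearrangements in 4 mice, with no other change at that base.

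The V genes of the substituted members spread widely and differed from mouse to mouse. IGHV1, the largest mouse family, held 59.8% ± 13.2 of the substituted members and 64.2% ± 0.533 of unmutated low-count IgM sequences (SD, n = 10). The small IGHV14 family held 12.6% ± 7.47 and 6.25% ± 0.263. The single genes with the highest mean share were IGHV1-15 with 6.49% ± 13.5, IGHV9-3 with 5.13% ± 2.40, IGHV14-2 with 4.89% ± 5.96, IGHV1-5 with 4.86% ± 6.85 and IGHV8-12 with 4.42% ± 6.90. IGHV9-3 was present in all 10 mice, between 2.31 and 9.35%, whereas IGHV1-15 reached 43.5% in anti-CTLA-4 mouse 4 and 0.298% in the lowest mouse. IGHV11-1, IGHV11-2, IGHV12-3 and IGHV7-1, V genes used by the innate-like B-1 cells, gave 3 substituted members and 856 unmutated sequences, which is 0.103 and 0.454% of the respective sets.

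Counted by rearrangements and set against unmutated IgM of the same mouse, 4 of 75 tested V genes (5.33%) were lower among the substituted members and 0 (0%) were higher (edgeR quasi-likelihood test, adjusted p under 0.05; 14 V genes at an unadjusted p under 0.05, and DESeq2 called 3 lower and 0 higher). The median log2 difference over all V genes tested was -0.30. IGHV1-72 supplied 27 substituted and 7696 unmutated rearrangements, with a log2 difference of -1.53 (edgeR adjusted p = 0.0164). IGHV1-64 supplied 32 and 7620 (log2 difference -1.54, edgeR adjusted p = 0.0164), and IGHV10-3 supplied 2 and 1662 (log2 difference -2.89, edgeR adjusted p = 0.0331). IGHV1-71 had no substituted rearrangement against 752 unmutated ones (edgeR adjusted p = 0.0164). DESeq2 lost this call (log2 difference -1.99, DESeq2 adjusted p = 0.0920). The deposited calls joined IGHV1-71 with IGHV1-62-2, which held 2 substituted rearrangements. They also joined IGHV1-72 with IGHV1-62-3, a joint call with a mean of 4.24% of unmutated sequences, against 0.128% for IGHV1-72 alone. Where both genes matched equally the first listed was kept, so the calls are not read as particular to IGHV1-71 or IGHV1-72. IGHV1-64 was lower in 10 of 10 mice and IGHV1-72 in 9 of 10. The call of IGHV10-3 was lost without isotype mouse 2 or without anti-CTLA-4 mouse 5, and 7 V genes were called without isotype mouse 4, isotype mouse 5, anti-CTLA-4 mouse 1 or anti-CTLA-4 mouse 3.

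Several V genes stood higher without passing. IGHV14-1 had 46 substituted and 1511 unmutated rearrangements (log2 difference 1.35, edgeR adjusted p = 0.117), with a share of 2.56% ± 2.32 against 0.805% ± 0.0763 (SD, n = 10), higher in 9 of 10 mice. IGHV14-2 had 127 and 4049 (log2 difference 0.98, adjusted p = 0.122), also higher in 9 of 10 mice. IGHV3-8 had 20 and 713 (log2 difference 1.42, adjusted p = 0.122) and was higher in 6 of 10.

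The same test on all selected sequences called 9 V genes higher (11.8%) and 17 lower (22.4%) of 76 tested, with a median log2 difference of -0.59 (edgeR). The condition counts mismatches to the assigned germline, so nothing about V gene choice is read from these calls. The joint call IGHV14-1,IGHV14-2 led with 1922 selected and 2156 unmutated rearrangements (log2 difference 5.92). IGHV1-69 supplied 160 and the joint call of IGHV8-12 with IGHV8-5 supplied 121, against 0 unmutated rearrangements each. IGHV1-56 (5.28), IGHV3-1 (2.62), IGHV4-1 (2.60) and IGHV1-19 (2.44) followed on the log2 scale. Without isotype mouse 4 the number called fell from 26 to 17. Between treatments 0 of the 5 V genes with enough rearrangements were called (0%; edgeR, 0 at an unadjusted p under 0.05, and DESeq2 called 0). Without the filter on low counts 128 V genes were tested, 0 were called and 14 had an unadjusted p under 0.05. For the substituted members no V gene had enough rearrangements per mouse for that comparison, and without the filter 0 of 88 were called, with 6 at an unadjusted p under 0.05.

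Substituted IgM rearrangements were shared with switched sequences far more often than unmutated ones. A switched relative, an IgG, IgA or IgE sequence of the same mouse with the same V, J and junction, existed for 16.3, 17.4, 12.7, 2.74 and 8.33% of substituted rearrangements in isotype mice 1 to 5, and for 24.7, 19.1, 19.0, 10.8 and 16.7% in anti-CTLA-4 mice 1 to 5. Isotype mouse 4, with 2 of 73 rearrangements, was lowest (exact binomial 95% interval 0.334 to 9.55%, for counting error only). Unmutated low-count IgM rearrangements without a substituted member had one in 0.0444 to 0.798% per mouse, below every value of the substituted members. Rearrangements with both kinds of sequence were counted on the substituted side only, and the part of this rule in the difference was not tested. The means were 14.8% ± 6.27 and 0.309% ± 0.260 (SD, n = 10; higher in 10 of 10 mice, exact sign-flip permutation test, adjusted p = 0.00391 over 2 measures). Over all selected sequences the mean was 6.12% ± 4.20.

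Of the 287 substituted rearrangements with a switched relative, 283 had IgG, 34 IgE and 7 IgA. By constant gene, IGHG2B was found with 220 of them (76.7%), IGHG1 with 169 (58.9%), IGHG2C, the form of this strain, with 147 (51.2%) and IGHG3 with 96 (33.4%). IGHG2A was found with 0. More than 1 of IgG, IgA and IgE was found with 37 (12.9%). The shares of these genes among all switched sequences are not given here, so their order is not read as a trait of the members.

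Sharing a junction did not mean sharing the substitutions. Of 974 substituted members with a switched relative, 583 (59.9%) shared no substitution with any of its switched sequences, 81 (8.32%) shared 3 or more and 18 (1.85%) had all their substitutions in 1 or more switched sequences. For 77.4% of them the relatives included a switched sequence without any V substitution. The median summed count of the relatives was 166 and the median count of the IgM member was 1, and the part of this difference in depth was not tested. The share without a common substitution ran from 33.3% in anti-CTLA-4 mouse 4 to 73.6% in anti-CTLA-4 mouse 2. Members sharing 3 or more were found mostly in anti-CTLA-4 mouse 5 (30 of 98), anti-CTLA-4 mouse 1 (26 of 132) and isotype mouse 5 (9 of 20).

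**Figure D5:**
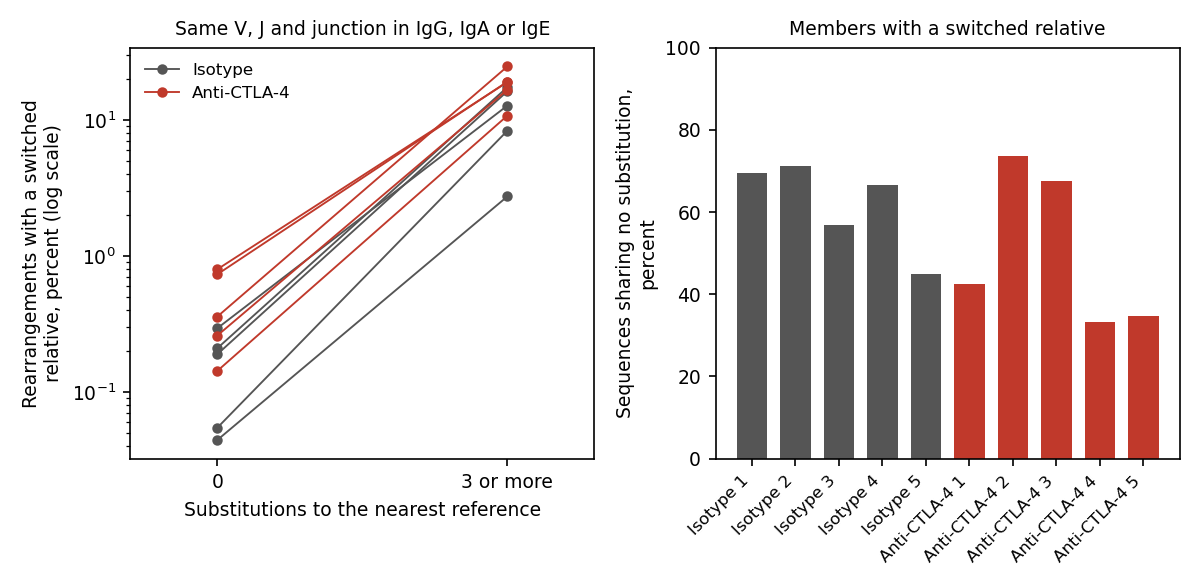
Left, percent of rearrangements with a switched relative (log scale) for unmutated IgM without a substituted member and for substituted members, a line per mouse. Right, percent of substituted members with a switched relative that shared no substitution with it, per mouse, from 33.3 to 73.6%.

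The member that shared most with a switched sequence is shown for 3 mice, because these alignments show substitutions held in common by an IgM and a switched sequence. Whether the partners of a pair came from 1 clone was not tested. Capitals in the germline mark the bases changed in either partner, and capitals in a partner mark its own bases that differ from germline. The first came from isotype mouse 3, with V gene IGHV10-1 and V bases 25 to 245.
Isotype 3, IGHV10-1 germline: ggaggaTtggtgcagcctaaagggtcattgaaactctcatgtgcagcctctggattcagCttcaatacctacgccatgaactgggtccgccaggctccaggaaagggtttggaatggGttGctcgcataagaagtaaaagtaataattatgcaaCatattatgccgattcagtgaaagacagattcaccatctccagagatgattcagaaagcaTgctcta
Isotype 3, IGHV10-1 IgM: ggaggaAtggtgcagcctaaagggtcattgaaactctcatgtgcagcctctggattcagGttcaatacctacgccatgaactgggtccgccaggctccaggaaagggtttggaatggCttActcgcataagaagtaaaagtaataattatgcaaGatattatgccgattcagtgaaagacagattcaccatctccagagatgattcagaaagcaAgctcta
Isotype 3, IGHV10-1 IGHG1: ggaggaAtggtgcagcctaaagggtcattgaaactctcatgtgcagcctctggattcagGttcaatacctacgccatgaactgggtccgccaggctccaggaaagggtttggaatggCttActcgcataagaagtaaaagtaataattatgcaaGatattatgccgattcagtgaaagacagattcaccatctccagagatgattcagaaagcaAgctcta
The IgM sequence had a count of 2 and the IGHG1 sequence a count of 1479, and both carried the same 6 substitutions, T31A, C84G, G142C, G145A, C179G and T239A. The second came from anti-CTLA-4 mouse 4, with IGHV1-20 and V bases 91 to 252.
Anti-CTLA-4 4, IGHV1-20 germline: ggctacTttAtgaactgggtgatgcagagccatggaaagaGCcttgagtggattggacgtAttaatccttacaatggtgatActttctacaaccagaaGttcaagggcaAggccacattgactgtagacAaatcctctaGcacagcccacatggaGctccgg
Anti-CTLA-4 4, IGHV1-20 IgM: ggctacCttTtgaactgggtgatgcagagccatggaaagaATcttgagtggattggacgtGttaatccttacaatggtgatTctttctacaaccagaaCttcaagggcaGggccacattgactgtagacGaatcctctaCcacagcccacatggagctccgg
Anti-CTLA-4 4, IGHV1-20 IGHG3: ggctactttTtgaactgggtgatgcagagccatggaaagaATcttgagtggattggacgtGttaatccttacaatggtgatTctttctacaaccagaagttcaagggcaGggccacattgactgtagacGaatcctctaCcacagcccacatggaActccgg
Here 8 of 10 IgM substitutions were shared. T97C and G189C were present in the IgM sequence alone, and the IGHG3 sequence carried G246A of its own. The third came from anti-CTLA-4 mouse 5, with IGHV14-4 and V bases 166 to 257.
Anti-CTLA-4 5, IGHV14-4 germline: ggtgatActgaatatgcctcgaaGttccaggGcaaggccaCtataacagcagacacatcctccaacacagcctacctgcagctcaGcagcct
Anti-CTLA-4 5, IGHV14-4 IgM: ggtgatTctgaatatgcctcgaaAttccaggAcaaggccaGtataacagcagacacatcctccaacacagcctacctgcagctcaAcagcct
Anti-CTLA-4 5, IGHV14-4 IGHG3: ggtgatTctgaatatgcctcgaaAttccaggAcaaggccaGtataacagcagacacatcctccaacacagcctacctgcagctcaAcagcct
All 5 substitutions were shared, and the counts ran the other way, with 15 for IgM and 1 for IGHG3. In the other mice the best pair shared 7 of 9 substitutions in anti-CTLA-4 mouse 1 (IGHV9-3 with IGHG3), 7 of 8 in isotype mouse 5 (IGHV4-1 with IGHG3), 4 of 6 in anti-CTLA-4 mouse 2 and 3 of 4 in isotype mouse 2. The best pair shared 2 of 7 in anti-CTLA-4 mouse 3, 1 of 4 in isotype mouse 1 and 1 of 5 in isotype mouse 4.

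Between treatments the share of substituted rearrangements with a switched relative was 18.0% ± 5.03 with anti-CTLA-4 and 11.5% ± 6.04 with isotype (SD, n = 5), with overlapping groups (exact permutation test, p = 0.103, adjusted p = 0.206). Over all selected sequences the shares were 8.56% ± 4.39 and 3.67% ± 2.33 (p = 0.0714, adjusted p = 0.143, exact permutation test). Without anti-CTLA-4 mouse 4 the difference was 6.37 percentage points with an adjusted exact permutation p of 0.0476. With each mouse left out in turn the adjusted exact permutation p reached 0.270. Here too the part of the mixture of substituted members and fixed V gene differences was not tested. An unmutated IgM sequence of the same rearrangement, at any count, was found for 21.0% ± 6.14 of substituted rearrangements with anti-CTLA-4 and 19.3% ± 7.84 with isotype (exact permutation test, adjusted p = 0.722).

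Most substituted rearrangements were seen in 1 sequence, and a few held many. Of 1729, 1359 had 1 substituted member and 370 had 2 or more, and the latter held 1556 members (53.4%). In 177 of the 370 (47.8%) at least 1 substitution was common to all members of the rearrangement, from 16.7% in anti-CTLA-4 mouse 3 to 91.7% in isotype mouse 4. The 12 rearrangements with most members, 16 to 50 each, had no substitution common to all of their members. Members of such a rearrangement share a source and are not independent of each other.

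The rearrangement with most members joined IGHV1-15 to IGHJ2 in anti-CTLA-4 mouse 4, with the junction tgtacaagaaactgggactttgactactgg. Its 50 members had 5 to 20 substitutions with a median of 11, in 47 different sets with 118 distinct substitutions, and their highest IgM count was 8. It had no switched sequence. The most substituted member is shown from V base 19 to 283, with its substitutions in capitals.
IGHV1-15 germline: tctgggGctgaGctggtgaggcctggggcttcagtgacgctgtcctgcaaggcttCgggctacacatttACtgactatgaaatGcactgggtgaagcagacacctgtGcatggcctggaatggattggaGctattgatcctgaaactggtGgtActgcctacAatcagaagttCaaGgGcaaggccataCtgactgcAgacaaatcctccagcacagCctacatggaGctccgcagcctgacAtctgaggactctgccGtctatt
IGHV1-15 member with 20 substitutions: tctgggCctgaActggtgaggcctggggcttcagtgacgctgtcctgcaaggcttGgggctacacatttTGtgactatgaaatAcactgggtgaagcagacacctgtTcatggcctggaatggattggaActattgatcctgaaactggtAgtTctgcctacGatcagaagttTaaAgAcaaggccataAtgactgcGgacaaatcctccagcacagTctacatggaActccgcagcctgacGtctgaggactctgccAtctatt
Among these were the adjacent A88T and C89G in CDR1 and the group C192T, G195A and G197A. Other large rearrangements looked different. In anti-CTLA-4 mouse 3, IGHV1-5 with IGHJ1 and the junction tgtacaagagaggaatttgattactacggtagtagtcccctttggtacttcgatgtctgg had 47 members of 3 to 6 substitutions, each with a set of its own, beside an IgM sequence with a count of 2268 and a switched count of 2789. In anti-CTLA-4 mouse 1, IGHV1-50 with the junction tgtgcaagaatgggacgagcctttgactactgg had 23 members of 3 to 7 substitutions in 23 sets, beside a switched count of 104131. An IgM sequence of the same rearrangement with a count of 100 or more accompanied 0 to 40.2% of the substituted members of a mouse, highest in anti-CTLA-4 mouse 3 and none in anti-CTLA-4 mouse 2.

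Some substituted rearrangements occurred in more than 1 mouse. The same V, J and junction was found in another mouse in any class for 152 of 1729 substituted rearrangements (8.79%) and for 2217 of 186690 unmutated ones (1.19%). One of them joined IGHV10-1 to the junction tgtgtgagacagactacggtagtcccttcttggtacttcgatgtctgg, with a summed count of 16439 in isotype mouse 3 and 6720 in isotype mouse 4. This rearrangement was also that of the alignment shown for isotype mouse 3 and of the best pair in isotype mouse 4. Whether such rearrangements arose in both mice or passed between libraries was not tested. Of the substituted members, 0 to 11.1% per mouse belonged to a rearrangement with a higher IgM count in another mouse, with isotype mouse 4 highest. The junction of substituted rearrangements had a mean length of 13.6 ± 0.50 amino acids and that of unmutated ones without a substituted member 13.8 ± 0.0411 (SD, n = 10; shorter in 6 of 10 mice, exact sign-flip permutation test, adjusted p = 0.281). Over all selected sequences the lengths were 13.2 ± 0.278 and 13.8 ± 0.0416, shorter in 10 of 10 mice (exact sign-flip permutation test, adjusted p = 0.00195). That set includes sequences selected through fixed differences between V genes, so the difference is not read as a trait of mutated sequences.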

How the data were processed

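Receptor heavy- and light-chain libraries were made from lymph node RNA of 10 mice with a kit that adds molecular identifiers, per the labels' protocols. The authors deposited 1 table per mouse with 1 row for each assembled sequence, per the file headers, holding gene calls, aligned query and germline bases and a raw count without normalization. Which aligner and germline set they used is not given in the sources used here. Productive heavy-chain rows were kept. Members, lists and comparisons were chosen with earlier results of these data known, and the nearest reference was added after seeing the data.

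Mismatches were read from the deposited alignments, and again against the nearest reference with edlib 1.3.9.post1. Values per mouse were compared by two-sided exact permutation tests, of group labels between treatments and of signs within mice, adjusted by Benjamini-Hochberg over 2 or 6 measures of a kind. Rearrangements per V gene were tested with edgeR 4.0.16 (quasi-likelihood, TMM, filterByExpr) in R 4.3.3, with mouse as a block against unmutated IgM, adjusted over all V genes tested; DESeq2 1.42.0 was an alternative. With few V genes the dispersion had no trend. The V gene script was checked on simulated data. V genes were named by the smallest p in each direction, by the highest share and from the B-1 list, and V positions by their number of separate rearrangements. Intervals cover counting error only.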

Additional observations from a re-analysis of the deposited data

Results flagged for a closer look

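In anti-CTLA-4 mouse 2 the selected sequences made up 4.63% of low-count IgM rearrangements, set apart from the other 4 mice of its group by 0.7105 of the group's range, at the limit of 0.71 for 5 values. This was the single value set apart among 40 groups looked at, and chance sets apart about 1 in 20 groups. The group mean was 2.59% ± 1.20 (SD, n = 5), and without this mouse the difference from isotype turned from 0.470 to -0.0407 percentage points. In the same mouse the substituted members made up 4.24% of low-count IgM sequences.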

How the results depend on the processing

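The alternatives gave 1250 values for 68 results, of which 1169 kept direction and side of the threshold, 34 were weaker, 22 stronger and 25 reversed. For transitions in all selected sequences against those with 1 or 2 mismatches, the difference of 3.41 percentage points turned to -8.09 with the nearest reference, -2.42 without recurrent positions and -0.0737 without the last 10 V bases. The CDR replacement difference was 0.757 with a minimum count of 2, and the junction length difference -0.187 with the nearest reference, neither passing. For the substituted members a minimum count of 2 gave 3.98 for hotspots and -2.57 for CDR replacement. The V genes called among all selected sequences numbered 61 without TMM, 77 without the filter, 15 from 2 mismatches, 42 from 5 mismatches, 15 without recurrent positions, 4 with the nearest reference and 17 to 33 leaving out a mouse. Among the substituted members they numbered 14 without the filter, 7 without rearrangements more counted in another mouse and 3 to 7 leaving out a mouse. IGHV1-69 turned to -0.47 without recurrent positions and IGHV8-2 to 0.14 from 2 mismatches.

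Treatment differences that reversed had passed no test. In all selected sequences the CDR share was -0.0621 with 1 sequence per rearrangement and -1.21 with the nearest reference, and framework replacement -0.405 with the nearest reference. In the substituted members the WA share was -1.42 with a minimum count of 2, -0.150 without rearrangements more counted elsewhere, -0.679 without those with an IgM count of 100 or more and -1.41 with 1 sequence per rearrangement. Unmutated relatives were -0.565 without high IgM counts, and framework replacement 0.162 with 1 sequence per rearrangement. Leaving out a mouse gave, in all selected sequences, -0.0540 to 0.837 for the CDR share, 4.13 to 6.37 for hotspots, 3.71 to 6.37 for switched relatives and -0.0407 to 0.707 for the share of rearrangements. In the substituted members it gave -0.846 to 1.47 for the WA share, -2.29 to 0.230 for the CDR share, -2.22 to 3.11 for framework replacement, -1.45 to 3.95 for unmutated relatives, 0.567 to 1.43 for the share of sequences and 0.179 to 0.833 for that of rearrangements.

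With replicate numbers as a block no treatment call changed, and 0 of 5 V genes were called. Same-numbered mice had correlated deviations of -0.146 to 0.236 in unmutated V gene usage. For the substituted members these correlations were -0.0789 to 0.317 over 13 V genes. The same-numbered anti-CTLA-4 mouse was the closest for isotype mice 1, 3 and 5 in unmutated usage. In the substituted members it was the closest for isotype mice 1 and 4. The numbers were not taken to pair mice. For treatment, the V gene fit with a minimum count of 2, and every fit of the substituted members that keeps the low-count filter, could not be fitted. The cause of these changes was not tested. Few rearrangements per V gene and mouse limit the treatment comparison.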
